A study of Danio rerio with 8 samples.

Results

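The kinesin motor genes were followed in pools of whole zebrafish embryos at 8 hpf, during gastrulation, in *miR-34a-/-* embryos and in wild-type embryos. Members were every counted gene whose symbol starts with kif and a digit, whatever its expression, with the kinesin-associated protein and kinesin-binding protein genes left out. This gave 45 of the 32520 genes counted. By kif number, after the known roles of each number, they were placed into 12 mitotic kinesins, 24 transport kinesins and 9 kinesins of cilia, Hedgehog signalling or other roles. The *kif3* genes and *kif17*, whose motors also work in cilia, were placed with the transport kinesins. The *miR-34a-/-* embryos were maternal-zygotic mutants of a line bred from a CRISPR/Cas9 deletion allele of the *miR-34a* gene, and they gave 4 libraries, and the wild-type embryos gave 4 more. Embryos of both genotypes were in the *casper* background, which lacks most pigment, and no drug treatment is given for them. The mutants were kept as a homozygous line of their own, so that wild-type embryos were not their siblings, and the effects of the deletion and of the line cannot be told apart. Polyadenylated RNA was sequenced from each pool, and nothing in the labels says that the pools of a genotype came from separate parents, so p-values measure the spread between pools. As these are bulk samples, fewer cells of a type and less RNA per cell cannot be told apart.

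The *miR-34a-/-* libraries held between 8159574 and 15724724 counts (median 10350116) and the wild-type libraries between 7132045 and 11191023 (median 9725207), and a single count stood for 0.0642 to 0.140 CPM (counts scaled to the library total). The *mir34a* gene had 0 counts in all 8 libraries, so the counts do not check the genotype labels. The stage was checked with 12 gastrula genes, all of which were read. Their summed level lay between 7142 and 7515 CPM in *miR-34a-/-* libraries and between 7154 and 7786 CPM in wild-type libraries. The highest group mean of a single gene among them was 4258 CPM, so the sums say little about the rarer genes. At an adjusted p-value under 0.05, 7 of the 12 genes were lower in *miR-34a-/-* embryos and 0 were higher. Over all genes tested, 22.4% were lower and 23% were higher by the same rule. Among the 7 were *sox17* (log2 fold change -0.50, SE 0.08) and *tbxta* (-0.20, SE 0.04). Of 13 genes of later tissues, 1 passed the filter on low counts and was not called, and no group mean was above 1.55 CPM. Whether a difference in developmental timing takes part in the results below was not tested.

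Kinesins are motor proteins that use ATP to move along microtubules, mostly toward the growing plus end, while a few shorten microtubules in place of walking. Mitotic kinesins slide spindle microtubules apart, move chromosomes and build the midzone where the cell divides, and the rapidly dividing early embryo needs them. Transport kinesins carry vesicles, organelles and RNA, and the eggs of fish and frogs use them to place maternal determinants. A further set works inside cilia or, like *kif7*, in Hedgehog signalling. MicroRNAs such as miR-34a bind messenger RNAs through a short seed and lower their stability or translation, and prediction lists of miR-34 targets in zebrafish hold *kif13a* and *kif3b*.

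Of the 45 kinesin genes, 31 had enough counts to be tested, namely all 12 mitotic kinesins, 15 transport kinesins and 4 others. A gene was called when its adjusted p-value was under 0.05 in the edgeR quasi-likelihood fit over the 13842 genes tested. By this rule, 10 kinesins were higher and 6 were lower in *miR-34a-/-* embryos and 15 were not called. The called share was 51.6%, against 45.4% over all genes tested, where 23% were called higher and 22.4% lower. Past 1.5-fold, 2 kinesins were higher and 2 were lower, against 17.6% of all genes tested in either direction (8.84% higher and 8.76% lower). All 4 *miR-34a-/-* values lay above all 4 wild-type values for 8 kinesins and below them for 5, against 19.6% and 19.2% of all genes tested (38.8% in either direction). The median log2 fold change of the 31 was 0.06, with a range from -2.0 to 1.43, and over all genes tested it was -0.001. The median size of the change, whatever its sign, was 0.16 on the log2 scale for the kinesins and 0.23 for all genes. By group it was 0.15 for the mitotic kinesins, 0.25 for the transport kinesins and 0.31 for the 4 others.

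**Figure D1:**
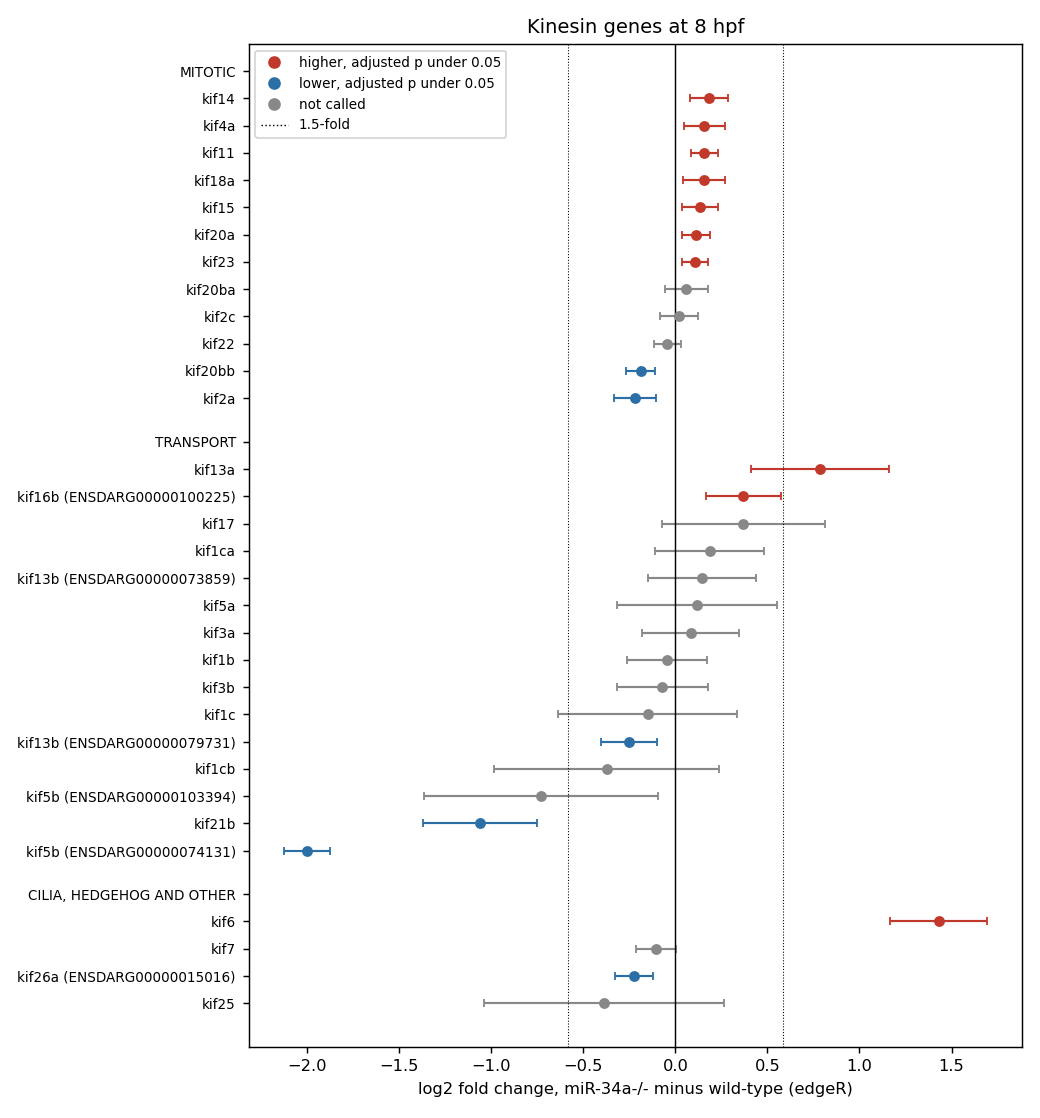
Log2 fold change (*miR-34a-/-* over wild-type, horizontal axis) of each of the 31 tested kinesin genes, by group, with bars of 1.96 standard errors on each side. The mitotic genes sit between -0.22 and 0.18. Of the called genes, *kif5b* (ENSDARG00000074131) at -2.0, *kif21b* at -1.06, *kif13a* at 0.79 and *kif6* at 1.43 lie furthest from 0. The rarely read *kif5b* (ENSDARG00000103394), which was not called, sits at -0.73 with a wide bar.

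The mitotic kinesins were read deeply, with between 3865 and 34876 counts over the 8 libraries, and their changes were small. Of the 12, 7 were higher, 2 were lower and 3 were not called, and none was past 1.5-fold. Among the 3548 genes with at least as many counts as the lowest mitotic kinesin, 54.2% were called, 28.2% higher and 26% lower, and 3.75% were past 1.5-fold, 2.17% higher and 1.58% lower. The median log2 fold change of the 12 was 0.11, and the called rises were between 1.08-fold and 1.14-fold. Summed over the 12 genes, the level was 2264, 2286, 2239 and 2281 CPM in the *miR-34a-/-* libraries and 2217, 2204, 2159 and 2144 CPM in the wild-type libraries. Every *miR-34a-/-* sum lay above every wild-type sum, with a ratio of means of 1.04. This narrow separation holds for TMM scaling only. With upper-quartile scaling the log2 fold change of *kif11* was 0.14 in place of 0.16, and the sums were not recomputed with it. The sum depends on the symbol rule, which leaves out kinesins of other names. Of these, *kifc1* had a mean of 252 CPM in *miR-34a-/-* libraries and 316 CPM in wild-type libraries. With *kifc1* added to the sums, the genotypes overlap. The means of *cenpe*, which was not called, were 294 and 276 CPM. Of the 12 mitotic kinesins, 5 lay wholly above the wild-type range and 1 wholly below, against 24.2% and 22.7% of the deeply read genes (46.8% in either direction).

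The motor that pushes the spindle poles apart, *kif11*, had 431, 436, 421 and 426 CPM in *miR-34a-/-* libraries, against 389, 395, 384 and 368 CPM in wild-type libraries. The groups did not overlap, and the difference was 1.11-fold (log2 fold change 0.16, SE 0.04, adjusted p = 0.0012). Its helper *kif15*, which can hold a spindle bipolar when *kif11* is blocked in human cells, was 1.1-fold higher (0.14 on the log2 scale, SE 0.05, adjusted p = 0.030), and here the groups overlapped.

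Several motors of the midzone and of cell division rose by similar amounts. The largest rise was that of *kif14*, which acts at the midbody, at 1.14-fold (log2 fold change 0.18, SE 0.05, adjusted p = 0.0056). *kif23*, the motor of the centralspindlin complex that positions the cleavage furrow, rose 1.08-fold (0.11, SE 0.04, adjusted p = 0.018), and so did *kif20a*, which brings the Aurora B complex to the midzone (0.11, SE 0.04, adjusted p = 0.020). *kif4a*, which binds chromosome arms and limits midzone length, rose 1.11-fold (0.16, SE 0.06, adjusted p = 0.025), although 1 wild-type library, at 93.8 CPM, lay within the *miR-34a-/-* range. *kif18a*, which dampens chromosome movements at the metaphase plate, also rose 1.11-fold (0.16, SE 0.06, adjusted p = 0.030).

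The 2 mitotic kinesins that fell were *kif20bb* and *kif2a*. *kif20bb*, a copy of a gene needed to complete cytokinesis, had 194, 193, 186 and 192 CPM in *miR-34a-/-* libraries, against 214, 224, 222 and 211 CPM in wild-type libraries. The groups did not overlap, and the level was 1.14-fold lower (log2 fold change -0.19, SE 0.04, adjusted p = 0.00048). Its sister copy *kif20ba* was not called (0.06, 95% interval -0.06 to 0.18), and the difference between the copies was not tested. *kif2a*, which removes tubulin from microtubule ends at spindle poles, had 77.1, 68.3, 65.6 and 66.6 CPM in *miR-34a-/-* libraries, against 83.3, 76.6, 83.4 and 79.0 CPM in wild-type libraries. It was 1.16-fold lower (-0.22, SE 0.06, adjusted p = 0.0030), and the groups overlapped through the first *miR-34a-/-* library. The related depolymerase *kif2c*, which acts at centromeres, was not called (0.02, interval -0.08 to 0.12), nor was the chromosome-arm motor *kif22* (-0.04, interval -0.12 to 0.03).

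The calls of the small rises depended on single libraries. Leaving out each library in turn, the number of kinesins called higher was 6 without *miR-34a-/-* replicate 2 or wild-type replicate 3, 8 without *miR-34a-/-* replicate 1 or 4 or wild-type replicate 2, 9 without wild-type replicate 1 or 4 and 10 without *miR-34a-/-* replicate 3. The highest adjusted p-value over these fits was 0.14 for *kif15*, 0.12 for *kif18a*, 0.11 for *kif4a*, 0.063 for *kif23* and 0.060 for *kif20a*. With upper-quartile scaling of all 8 libraries, *kif15*, *kif18a*, *kif20a* and *kif23* were not called either, which left 6 kinesins higher. The other 4 called mitotic kinesins, *kif11*, *kif14*, *kif20bb* and *kif2a*, were called in each of the 8 fits without a library.

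**Figure D2:**
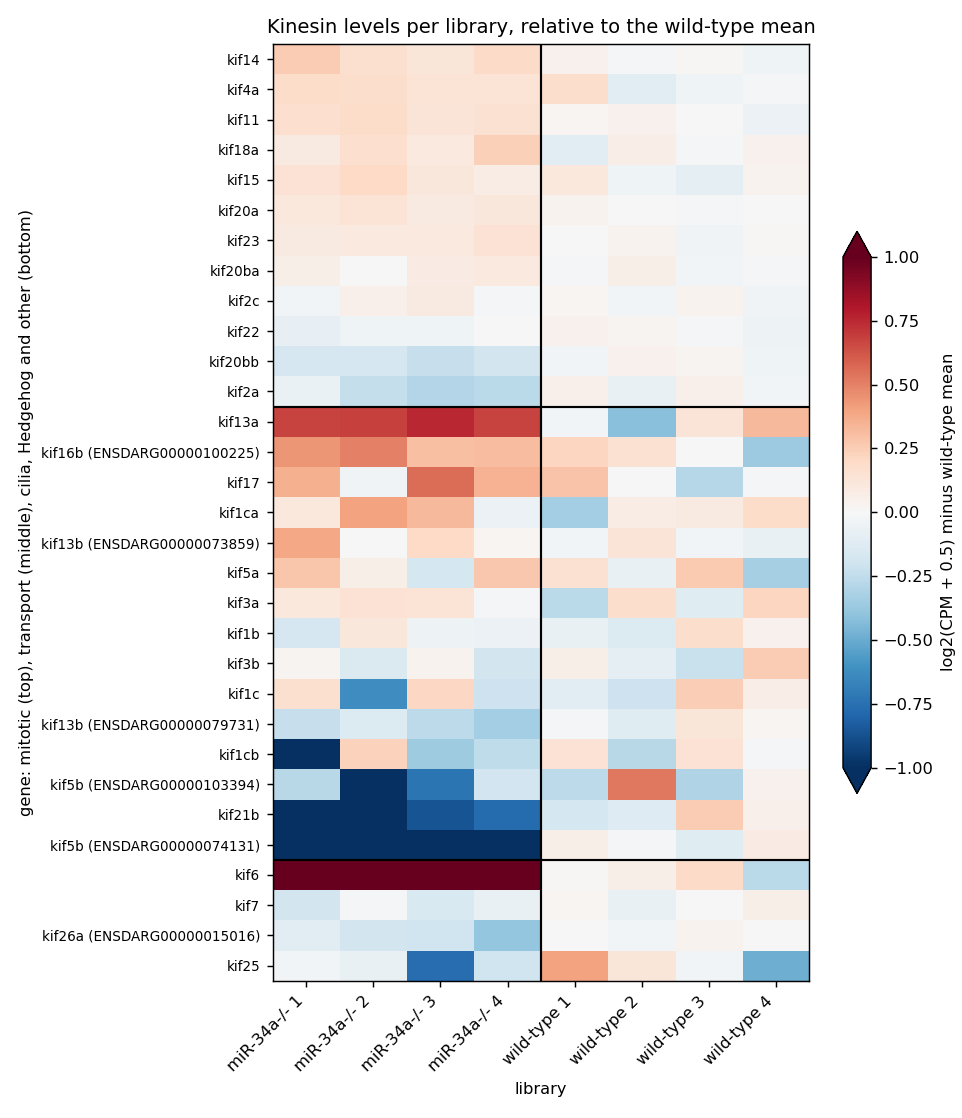
Level of each tested kinesin gene in each of the 8 libraries, as log2(CPM + 0.5) minus the gene's mean over the wild-type libraries, with colours saturated beyond 1 unit and with *miR-34a-/-* libraries on the left and wild-type libraries on the right. *kif5b* (ENSDARG00000074131) is low and *kif6* is high in all 4 *miR-34a-/-* libraries, while the mitotic rows are pale throughout.

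Of the 15 transport kinesins tested, 2 were higher and 3 were lower, so that 33.3% were called, against 45.4% of all genes tested, and their counts ranged from 118 to 5370. Past 1.5-fold, 1 was higher and 2 were lower, against 8.84% and 8.76% of all genes tested. These shares vary with depth, as 17.6% of all genes tested but 3.75% of the deeply read genes were past 1.5-fold. No share matched to the counts of the transport kinesins was computed. The median log2 fold change of the 15 was -0.04.

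The largest change of any kinesin was in *kif5b* (ENSDARG00000074131). KIF5B is the broadly expressed heavy chain of conventional kinesin, which moves mitochondria, vesicles and messenger RNA, and in zebrafish eggs a maternal copy is needed for germ plasm to gather and for the dorsal axis to form. The gene had 30.1, 27.5, 25.2 and 27.3 CPM in *miR-34a-/-* libraries, against 115, 109, 101 and 117 CPM in wild-type libraries. The highest *miR-34a-/-* library was below the lowest wild-type library. The means were 27.5 ± 2.0 CPM in *miR-34a-/-* embryos and 110.7 ± 7.0 CPM in wild-type embryos (SD, n = 4 each), a 4.00-fold lower level (log2 fold change -2.0, SE 0.06, adjusted p = 2.3e-19 in edgeR). The exact two-sided permutation test over the 8 libraries gave p = 0.0286, the smallest it can give. Leaving out each library in turn gave log2 fold changes between -2.05 and -1.96.

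A second gene carries the same symbol, *kif5b* (ENSDARG00000103394), and was rarely read, with 118 counts in all. It had 1.36, 0.546, 0.857 and 1.47 CPM in *miR-34a-/-* libraries, against 1.37, 2.74, 1.32 and 1.82 CPM in wild-type libraries. The groups overlapped, and the gene was not called (log2 fold change -0.73, SE 0.32, 95% interval -1.36 to -0.09, adjusted p = 0.068). It was called lower without *miR-34a-/-* replicate 4 (-1.0, adjusted p = 0.033) or without wild-type replicate 3 (-0.88, adjusted p = 0.040). Its log2 fold change was nearer to 0 without wild-type replicate 2 (-0.43, adjusted p = 0.34) or without *miR-34a-/-* replicate 2 (-0.51, adjusted p = 0.22). The tables used here do not say which gene is *kif5ba* and which *kif5bb*, and reads of near-identical stretches could have been split between the copies. Of the other heavy chains of this motor, the largely neuronal *kif5a* was not called (0.12, interval -0.32 to 0.55).

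The fall of *kif5b* (ENSDARG00000074131) set the summed level of the group. Over all 24 transport kinesins the sum was 141, 140, 136 and 133 CPM in *miR-34a-/-* libraries, against 225, 218, 217 and 230 CPM in wild-type libraries, a ratio of means of 0.619. Without this gene the sum of the other 23 was between 105 and 113 CPM in *miR-34a-/-* libraries and between 109 and 115 CPM in wild-type libraries, with a ratio of 0.985, and the groups overlapped. The sum over all 45 kinesins was 2617 ± 25.1 CPM in *miR-34a-/-* embryos and 2633 ± 32.5 CPM in wild-type embryos (SD, n = 4 each).

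**Figure D3:**
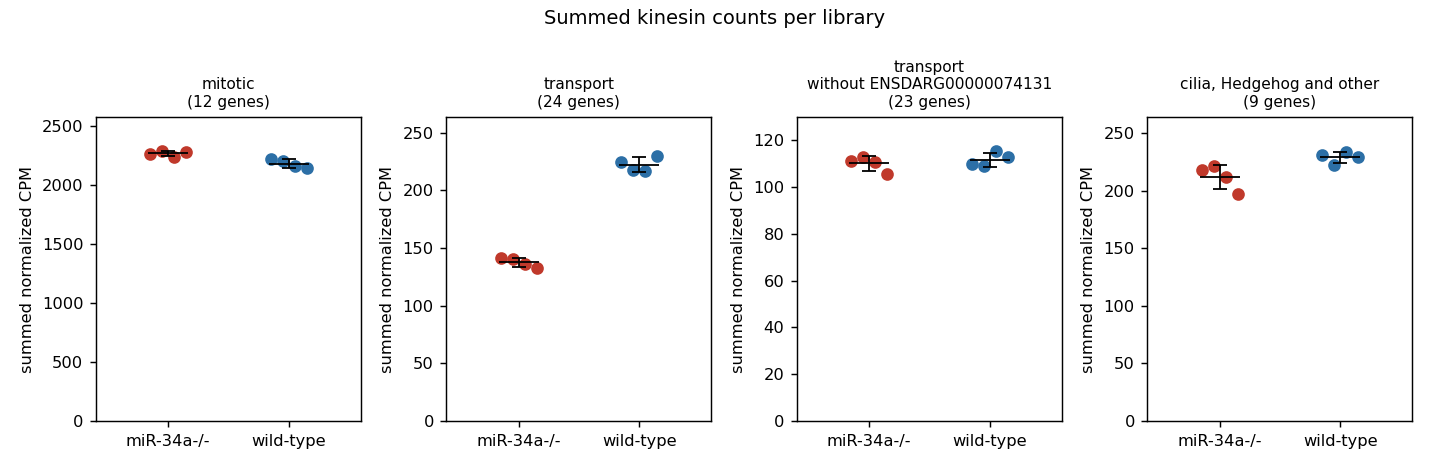
Summed CPM of the kinesin groups in each library (vertical axis from 0), with points for libraries and bars for the mean and SD of 4 libraries. The mitotic sums are slightly higher in *miR-34a-/-* libraries, the transport sums are lower, and without *kif5b* (ENSDARG00000074131) the transport sums overlap.

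The second transport gene that fell past 1.5-fold was *kif21b*, a motor that also restrains microtubule growth and is best known from neurons and lymphocytes. It had 3.35, 3.46, 4.28 and 4.62 CPM in *miR-34a-/-* libraries, against 7.21, 7.47, 9.87 and 8.53 CPM in wild-type libraries. The groups did not overlap, and the level was 2.09-fold lower (log2 fold change -1.06, SE 0.16, adjusted p = 3.7e-06). Leaving out single libraries gave values between -1.18 and -0.96.

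*kif13a*, which carries recycling endosomes and the mannose-6-phosphate receptor, was the transport gene that rose past 1.5-fold. It had 4.60, 4.64, 4.90 and 4.62 CPM in *miR-34a-/-* libraries, against 2.63, 1.89, 3.00 and 3.5 CPM in wild-type libraries. The *miR-34a-/-* values lay close together and above the wild-type values, at 1.72-fold (log2 fold change 0.79, SE 0.19, adjusted p = 0.0015, between 0.63 and 0.89 without single libraries). *kif13a* is on the list of predicted miR-34 targets by its gene identifier. The paper found no significant overlap between predicted targets and the genes up-regulated in the mutants at this stage. Of all genes tested here, 8.84% were called higher past 1.5-fold. Whether the rise of *kif13a* comes from lost binding of miR-34a was not tested. The other kinesin on the list of predicted targets, *kif3b*, a subunit of the motor that carries cargo along cilia, matched by symbol only. It had 9.83, 8.65, 9.92 and 8.40 CPM in *miR-34a-/-* libraries, against 10.1, 8.98, 8.20 and 11.6 CPM in wild-type libraries. The groups overlapped and *kif3b* was not called (-0.07, SE 0.13, interval -0.32 to 0.18, adjusted p = 0.68).

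**Figure D4:**
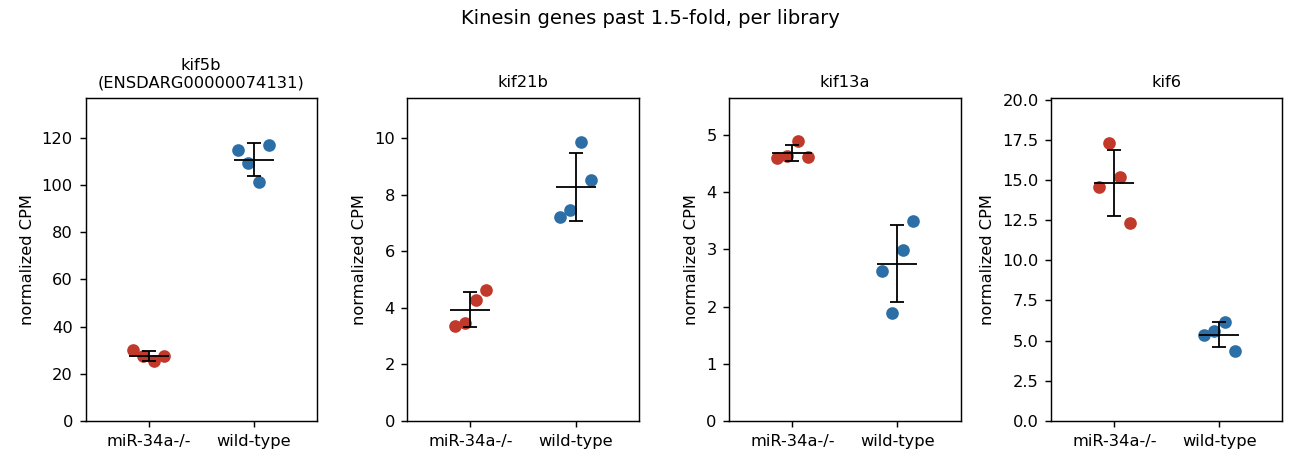
Normalized CPM in each library for the 4 kinesin genes past 1.5-fold (vertical axes from 0), *miR-34a-/-* on the left and wild-type on the right of each panel, with the mean and SD of 4 libraries. In each panel the groups do not overlap.

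Below 1.5-fold, *kif16b* (ENSDARG00000100225), a motor of early endosomes, was 1.29-fold higher (log2 fold change 0.37, SE 0.10, adjusted p = 0.0049), with 20.6 ± 1.5 CPM in *miR-34a-/-* embryos and 15.8 ± 2.7 CPM in wild-type embryos (SD, n = 4 each). *kif13b* (ENSDARG00000079731), a vesicle motor, was 1.19-fold lower (-0.25, SE 0.08, adjusted p = 0.0090), while the gene with the same symbol, ENSDARG00000073859, was not called (0.15, interval -0.15 to 0.44). The subunits of the heterotrimeric ciliary motor and its relative were not called, with values of 0.08 for *kif3a* (interval -0.18 to 0.35) and 0.37 for *kif17* (interval -0.07 to 0.81). The vesicle motors of the *kif1* family were not called either, with *kif1b* at -0.04, *kif1c* at -0.15, *kif1ca* at 0.19 and *kif1cb* at -0.37. With 124 counts, *kif1cb* had an interval from -0.98 to 0.24, which holds a 1.5-fold fall. The 5 called transport kinesins were called in each of the 8 fits that left out a library.

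Among the remaining kinesins, *kif6* rose. It belongs to a family of motors found in motile cilia, and loss of *kif6* in zebrafish gives a curved spine. It had 14.5, 17.3, 15.2 and 12.3 CPM in *miR-34a-/-* libraries, against 5.38, 5.58, 6.17 and 4.34 CPM in wild-type libraries. The groups did not overlap, and the level was 2.69-fold higher (log2 fold change 1.43, SE 0.13, adjusted p = 1.6e-09, between 1.34 and 1.53 without single libraries). *kif26a* (ENSDARG00000015016), which has a motor-like domain without ATPase activity in mammals, fell. It had 139, 132, 130 and 115 CPM in *miR-34a-/-* libraries, against 150, 147, 154 and 150 CPM in wild-type libraries. The groups did not overlap, and the level was 1.17-fold lower (-0.22, SE 0.05, adjusted p = 0.00088). Summed over the 9 genes of this group, the level was between 197 and 221 CPM in *miR-34a-/-* libraries and between 223 and 234 CPM in wild-type libraries. *kif26a* (ENSDARG00000015016) was the largest part of these sums, with means of 129 CPM in *miR-34a-/-* libraries and 150 CPM in wild-type libraries. The lower sum is therefore not a trait of the whole group, as *kif6* went the other way. *kif7*, which works at the ciliary tip in Hedgehog signalling, was not called (-0.10, interval -0.21 to 0.01), nor was *kif25* (-0.39, interval -1.04 to 0.26).

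The 14 kinesin genes that were not tested held between 1 and 67 counts over the 8 libraries. They were *kif19*, *kif9*, *kif26b*, *kif26bb*, *kif1a*, *kif1ab*, *kif21a*, *kif28*, *kif5ab*, *kif5c* and second identifiers of *kif26a* and *kif16b*, as well as both of *kif3c*. For 4 of them every library was at the floor of 3 counts or fewer, namely *kif9*, *kif5ab*, *kif16b* (ENSDARG00000080018) and *kif3c* (ENSDARG00000017162), so that no difference was detectable. Of the 45 genes, 10 share 5 symbols between them, and copies that are nearly alike may have exchanged reads.

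Genes that work with kinesins were set beside them. Of 20 tested kinesin partners and kinesins of other names, 4 were higher and 5 were lower (median log2 fold change -0.05). The scaffold *spag9a*, which links motors to cargo, was higher, at 10.8 ± 1.0 CPM in *miR-34a-/-* embryos and 6.09 ± 1.14 CPM in wild-type embryos (0.87, SE 0.14, adjusted p = 9.2e-06), and so was the mitochondrial adaptor *trak2* (0.65, SE 0.20, adjusted p = 0.010), which was not called without wild-type replicate 1 (0.47, adjusted p = 0.053). The largest fall in the list was that of *kifbp*, whose product binds kinesin motor domains and keeps them off microtubules, at 8.37 ± 0.68 CPM in *miR-34a-/-* embryos and 15.96 ± 1.42 CPM in wild-type embryos (-0.93, SE 0.11, adjusted p = 1.0e-07). *kifc1*, a minus-end-directed spindle kinesin, had 252 ± 8.1 CPM in *miR-34a-/-* embryos and 316 ± 12.3 CPM in wild-type embryos (-0.32, SE 0.04, adjusted p = 3.2e-07).

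Cytoplasmic dynein and its activator dynactin carry cargo the opposite way. Of 27 tested genes of this machinery, 10 were higher and 4 were lower, against 23% and 22.4% of all genes tested. The median of the 27 was 0.05. Past 1.5-fold, 6 were higher and 0 were lower, against 8.84% and 8.76% of all genes tested. Both genes named *dynll2*, a dynein light chain, were higher (0.66 and 0.61, SE 0.05 each), while the light chain *dynll1* was lower (-0.48, SE 0.03), at 820 ± 23.1 CPM in *miR-34a-/-* embryos and 1145 ± 27.3 CPM in wild-type embryos. Of the 2 genes named *dctn1*, the large dynactin subunit, ENSDARG00000056753 was lower, at 5.13 CPM in *miR-34a-/-* embryos and 7.30 CPM in wild-type embryos (-0.48, SE 0.16, adjusted p = 0.014), but was not called without *miR-34a-/-* replicate 1 (-0.42, adjusted p = 0.050) or wild-type replicate 4 (-0.41, adjusted p = 0.052). The other, ENSDARG00000019743, had 28.8 CPM in *miR-34a-/-* embryos and 32.3 CPM in wild-type embryos and was not called (-0.16, SE 0.07, adjusted p = 0.090).

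Of 29 spindle, midzone and kinetochore genes, 5 were higher and 8 were lower (median -0.04). The augmin subunit *haus1*, which helps to branch spindle microtubules, was higher (0.83, SE 0.08, adjusted p = 1.1e-09), as was *prc1* (ENSDARG00000100918), the midzone crosslinker that *kif4a* binds (0.16, SE 0.04, adjusted p = 0.0036). The other gene named *prc1* (ENSDARG00000005993), picked out after its values were seen, was lower (-0.59, SE 0.13, adjusted p = 0.00042). The spindle-pole protein *numa1* (-0.36, SE 0.05) and the microtubule polymerase *ckap5* (-0.35, SE 0.05) were lower. Among 22 ciliary and Hedgehog genes, 4 were higher and 5 were lower (median -0.02). Of the proteins that travel with ciliary kinesin, *ift80* was higher, at 33.96 ± 1.35 CPM in *miR-34a-/-* embryos and 15.83 ± 0.64 CPM in wild-type embryos (1.1, SE 0.08, adjusted p = 8.3e-12), and *ift140* was higher (0.44, SE 0.08), while *ift74* was lower (-0.51, SE 0.07). The Hedgehog inhibitor *sufu* was lower (-0.26, SE 0.07, adjusted p = 0.0021). The called shares of the 4 lists were 45%, 51.9%, 44.8% and 40.9%, against 45.4% of all genes tested (23% higher and 22.4% lower).

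**Figure D5:**
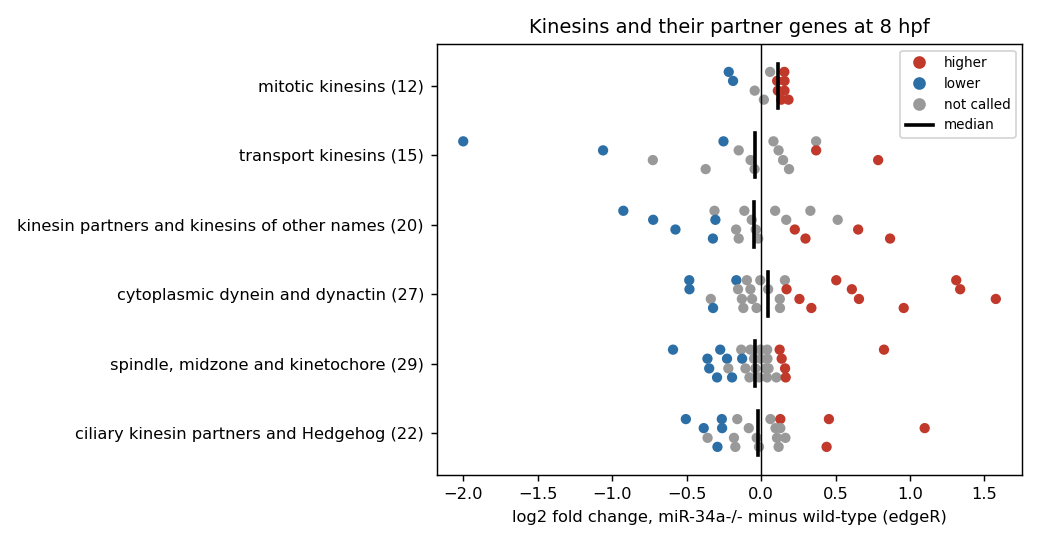
Log2 fold change (*miR-34a-/-* over wild-type) of each tested mitotic and transport kinesin and of each tested gene in the 4 lists of partner genes, 1 point per gene, with the median of each list. The medians lie between -0.05 and 0.11, near the median of all genes at -0.001.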

How the data were processed

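Polyadenylated RNA from pools of 30 embryos (30 to 50 per the labels) was sequenced in 8 libraries. The authors trimmed reads with Trim Galore 0.4.4, mapped them with STAR 2.7.8 to danRer11 and deposited raw counts per Ensembl gene, without normalization. The counting program, annotation release and use of strand are not given in the sources used here, so overlapping genes and close copies may share reads.

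From the counts, edgeR 4.0.16 in R 4.3.3 gave log2 fold changes (TMM, filterByExpr, quasi-likelihood test, genotype as the only term) with Benjamini-Hochberg adjustment over 13842 genes. The method was tested on simulated data whose changes were larger than those of the mitotic kinesins, so the simulation does not cover calls of such small changes. CPM values are TMM-normalized. The SE is the log2 fold change divided by the square root of F, and intervals are 1.96 SE. Symbols came from a table of gene names, which named 29201 of 32520 identifiers. Partner lists were compared by counts and medians.

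Members, groups and lists were chosen with earlier results of these data known. Values in every library are given for kinesins past 1.5-fold, up to 3 called kinesins per group with the smallest adjusted p-values, both *kif5b* genes and predicted miR-34 targets. For each partner list, up to 2 genes per direction with the smallest adjusted p-values are named. The 95% intervals are for the log2 fold change and rest on the spread between libraries. They use a normal multiple, so they are somewhat narrower than the quasi-likelihood test would give. Alternatives were RLE and upper-quartile scaling, no filter, at least 1 CPM in 4 libraries, the likelihood ratio test, DESeq2 1.42.0, voom in limma 3.58.1, a replicate block, and leaving out each library. Figures were drawn with matplotlib 3.10.9.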

Additional observations from a re-analysis of the deposited data

Results flagged for a closer look

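In 62 sets of 4 libraries, 1 per tested kinesin and genotype, a library was singled out when its gap to the nearest of the others, as a share of the range, was above Dixon's 95% critical value. Chance singles out about 1 in 20 sets, and 3 were found here. For *kif23*, *miR-34a-/-* replicate 4 was at 449 CPM and the other *miR-34a-/-* libraries were between 433 and 436 CPM. For *kif13a*, *miR-34a-/-* replicate 3 was at 4.90 CPM and the others were between 4.60 and 4.64 CPM. Replicate 3 held 40 counts of *kif13a*, and 1 count there stood for 0.122 CPM, so this gap amounts to very few counts. For *kif20ba*, wild-type replicate 2 was at 47.9 CPM and the other wild-type libraries were between 44.96 and 45.5 CPM.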

How the results depend on the processing

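The number of kinesins called higher was 10 and fell to 6 with upper-quartile scaling, which moved the median log2 fold change of all genes to -0.02 and lost *kif15*, *kif18a*, *kif20a* and *kif23*. It ranged from 6 to 10 in the fits without a library. It was 9 in DESeq2, without *kif18a*, and 11 without a filter, with *kif26bb*. The 6 kinesins called lower were called under every alternative. Without single libraries, the log2 fold change of *kif3b* ran between -0.16 and 0.0117, positive only without wild-type replicate 4. *kif5b* (ENSDARG00000103394) was called lower in the likelihood ratio test (-0.73, adjusted p = 0.049) and in none of the other 7 alternatives that keep all libraries, where DESeq2 had the highest adjusted p (0.13). Counts over all genes stayed within 1.5 times the main count in all 64 recalculations. Replicate numbers did not pair the libraries, as same-numbered libraries correlated between -0.032 and 0.008 in their deviations from the genotype means. A replicate block gave 10 higher and 6 lower and changed no call of a kinesin. Depth limits the rarely read genes, such as *kif25* with 89 counts and a 95% interval from -1.04 to 0.26.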

Other observations

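Among the kinesins below the filter, *kif26bb* had 9, 9, 13 and 19 counts in *miR-34a-/-* libraries and 3, 4, 6 and 3 counts in wild-type libraries. Tested without the filter, it had 1.40 on the log2 fold scale (SE 0.44, adjusted p = 0.0080 in edgeR), and all 4 *miR-34a-/-* values lay above the wild-type values in CPM. For strongly changed kinesins, the edgeR fit without the filter gave much smaller adjusted p-values than the main edgeR fit. For *kif6* these were 1.6e-25 and 1.6e-09, so the adjusted p-value of *kif26bb* cannot be set beside the main calls. *kif1a* had 3, 3, 3 and 5 counts in *miR-34a-/-* libraries and 5, 7, 7 and 4 counts in wild-type libraries, with no overlap in CPM. Its adjusted p-value in the edgeR fit without the filter was 0.24.

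A kinesin-like gene outside the symbol rule, *kifl* (ENSDARG00000092460), was looked at after its values were seen. It had 2.72, 2.09, 1.47 and 1.35 CPM in *miR-34a-/-* libraries and 2.86, 2.46, 3.70 and 3.78 CPM in wild-type libraries. The groups overlapped, and it was lower by edgeR (log2 fold change -0.76, SE 0.25, adjusted p = 0.013). It was not called without *miR-34a-/-* replicate 4 (-0.58, adjusted p = 0.072) or wild-type replicate 3 (-0.67, adjusted p = 0.052).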
